A study of Mus musculus with 5 samples.

Results

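Regulatory T cells (Tregs) are CD4 T cells whose identity rests on the transcription factor Foxp3. Activated conventional T cells make interleukin-2, and Tregs take it up through a receptor of 3 chains (Il2ra, Il2rb and Il2rg), make little of it themselves and so limit its supply to other T cells. In tumours and lymph nodes the cytokine and its receptor therefore tie Tregs to conventional CD4 T, CD8 T and NK cells. Described here are 10 genes of this axis out of 27998 in the table, chosen by name. They are the transcription factors Foxp3, Ikzf2 (Helios) and Ikzf4 (Eos), the receptor chains Il2ra (CD25), Il2rb (CD122) and Il2rg (the common gamma chain), the cytokine Il2, and the surface proteins Izumo1r (a folate receptor family protein also called FR4), Nrp1 (a semaphorin and growth factor receptor) and Lrrc32 (GARP, which holds latent TGF-beta on the cell surface).

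The cells were live CD45+ immune cells sorted from the tumour, dLN and non-dLN of 3 mice, of which mouse 1 received nivolumab_mIgG1_D265A, mouse 2 nivolumab_mIgG1 and mouse 3 the isotype control MOPC21. The 9 samples were marked with hashtag antibodies and pooled, and RNA was counted as unique molecular identifiers (UMIs) by 10x 5′ sequencing. No label used here ties a hashtag to a mouse or a site, so the hashtag populations are numbered 1 to 9, form no groups, and no comparison between sites or antibodies was made. With 1 mouse per antibody, such groups would hold no replicate mice. After filtering, 21347 cells remained, 21094 of them with a hashtag, and the populations held 2051 to 2550 cells with a median of 3374 to 10662 UMIs per cell.

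CD4 T cells were the 2470 cells (11.6% of those kept) with at least 2 UMIs over Cd3e, Cd3d and Cd3g and at least 1 of Cd4. Many lay at the edge of this gate, since 1340 cells (54.3%) had exactly 1 Cd4 UMI. UMIs of other lineages were also present: 410 cells (16.6%) had at least 2 UMIs of the macrophage genes C1qa, C1qb and C1qc, 123 had at least 2 of Cd8a and Cd8b1, and 82 at least 2 of the B cell genes Cd79a, Cd79b and Ms4a1. Their part in the results was not tested in general. The comparison of Foxp3-positive with Foxp3-negative CD4 T cells was repeated without them, and there too 6 members were higher (8.29% of all genes) and 1 lower (4.12%). The number of CD4 T cells per population was 92, 349, 460, 70, 245, 440, 45, 293 and 452, from population 1 to population 9.

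The promoters of Foxp3 and Il2 are shown because Foxp3 defines the cell classes below and Il2 had no UMI in the Foxp3-positive class. The sequences are RefSeq's on GRCm38.p6, 5′ to 3′ on the gene's strand, from 250 bases before the start to 50 after it. Foxp3 lies on chromosome X (7573644 to 7595245, + strand) and Il2 on chromosome 3 (37120523 to 37125959, - strand). Capitals mark matches, on either strand, to GGAAAA (the core bound by NFAT) and to TTCNNNGAA (bound by STAT5, the factor that carries the interleukin-2 receptor signal).
Foxp3, chrX:7580233-7580532: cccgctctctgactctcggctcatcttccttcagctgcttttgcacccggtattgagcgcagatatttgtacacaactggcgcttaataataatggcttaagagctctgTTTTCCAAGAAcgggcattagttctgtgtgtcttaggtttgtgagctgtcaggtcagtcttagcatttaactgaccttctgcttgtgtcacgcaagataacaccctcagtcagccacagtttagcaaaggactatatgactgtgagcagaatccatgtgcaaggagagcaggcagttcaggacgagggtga
Il2, chr3:37125905-37126204: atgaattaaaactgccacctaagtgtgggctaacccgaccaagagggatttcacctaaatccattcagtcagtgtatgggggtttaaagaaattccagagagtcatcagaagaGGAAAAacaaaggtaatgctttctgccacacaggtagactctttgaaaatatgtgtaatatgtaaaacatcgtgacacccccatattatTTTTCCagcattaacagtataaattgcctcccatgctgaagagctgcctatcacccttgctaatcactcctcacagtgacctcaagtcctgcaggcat
The Il2 window held 2 separate GGAAAA matches. The Foxp3 window held 1 GGAAAA match and 1 TTCNNNGAA match, which overlap and are printed as a single run of capitals. Of 32851 promoter windows of this length, 23.4% held GGAAAA and 8.30% held TTCNNNGAA. The AP-1 letters TGANTCA (7.81% of windows) and the forkhead letters TGTTTAC (3.65%) were searched too and matched neither window. A further Foxp3 start (chrX:7579426-7579725) and the windows of Il2ra, Il2rg, Izumo1r and Nrp1 held no match to any of the 4 motifs. In all 6 of the 10 genes were in the promoter table; Ikzf2, Ikzf4, Il2rb and Lrrc32 were not. A match is a run of letters and not a shown binding site.

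Foxp3 was detected in 270 of 2470 CD4 T cells, or 10.9% (95% Clopper-Pearson interval 9.73 to 12.2%, counting error only). The share was 45.7, 7.16, 8.70, 42.9, 8.98, 7.50, 28.9, 11.9 and 5.75% from population 1 to population 9, and population 7 rested on 13 cells with Foxp3. The share depends on depth: it was 4.93% when each cell was thinned to 1500 UMIs. In B cells, which should lack the gene, it was 0.391% (0.192% thinned), at a median depth of 3051 UMIs against 4414 in CD4 T cells. It was 1.06% in CD8 T cells (0.334% thinned) and 1.15% in macrophages (0.115% thinned). CD4 T cells held 60.1% of the 1029 Foxp3 UMIs in all cells, and a further 221 UMIs lay in 131 T cells that passed neither the Cd4 nor the Cd8 gate. A cell without a Foxp3 UMI may still express the gene, so the Foxp3-negative cells below are cells without a detected transcript.

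Across the marker gates the members followed different orders, each gene read on its own as UMIs per 1000000 of a gate's total (CPM). Among the gates of at least 50 cells, Foxp3 was highest in CD4 T cells at 48.8 CPM (exact Poisson interval 45.0 to 52.8), with 21.2 CPM in other T cells, 18.6 in ungated cells and 2.52 in CD8 T cells. Izumo1r followed the same order, with 208 CPM in CD4 T cells, 93.2 in other T cells, 27.5 in ungated cells and 24.8 in CD8 T cells. Lrrc32 was also highest in CD4 T cells, with 14.8 CPM against 9.51 in other T cells and 0.984 in CD8 T cells. Its 11.3 CPM in ungated cells lay above other T cells. Both genes stayed at or under 3.00 CPM in B, NK and macrophage gates.

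**Figure D1:**
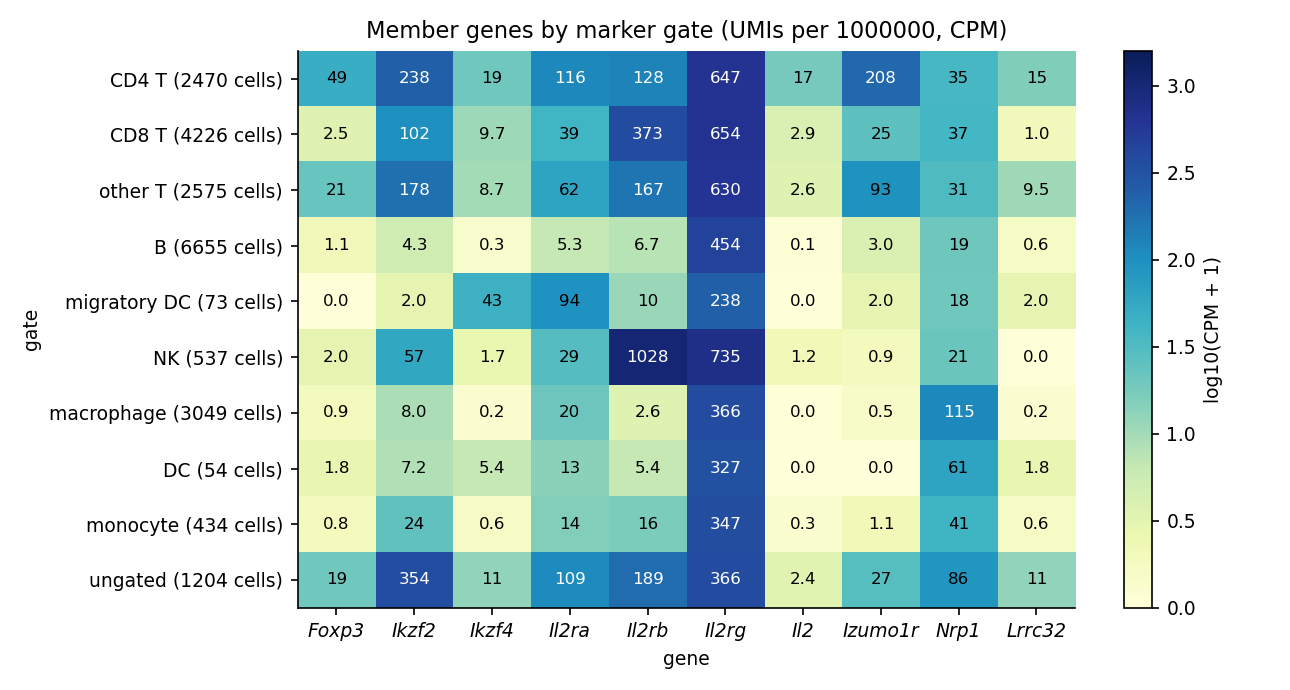
Level of each member gene (columns) in each marker gate of at least 50 cells (rows), as UMIs per 1000000 of the gate (CPM), and the colour is log10(CPM + 1). Foxp3, Izumo1r, Lrrc32 and Il2 were highest in CD4 T cells, Il2rb in NK cells, and Nrp1 in macrophages; levels should be read down a column, not along a row.

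The receptor chains had separate distributions. Il2rb, the signalling chain shared with interleukin-15, stood at 1028 CPM in NK cells (994 to 1062), 373 in CD8 T cells, 128 in CD4 T cells and 6.66 in B cells. In CD8 T cells it ranged over the populations from 94.96 CPM to 781 CPM with a median of 126. Il2rg, which every receptor of this cytokine family uses, was found in every gate, at 647 CPM in CD4 T cells, 735 in NK cells, 654 in CD8 T cells, 454 in B cells and 366 in macrophages. Il2ra, the chain that raises the receptor's affinity, was at 116 CPM in CD4 T cells (110 to 122), 94.3 in migratory dendritic cells (69.0 to 126; 73 cells), 38.9 in CD8 T cells and 5.31 in B cells. Ungated cells were at 109 CPM of Il2ra (96.5 to 123) and other T cells at 61.9. The intervals of CD4 T cells, ungated cells and migratory dendritic cells overlap for this chain.

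Ikzf4 had a second site of detection outside T cells: 43.0 CPM in migratory dendritic cells (26.6 to 65.8, from 21 UMIs), against 18.8 in CD4 T cells and 9.68 in CD8 T cells. Ikzf2, in contrast, was at 238 CPM in CD4 T cells and at 2.05 in migratory dendritic cells, and at 102 in CD8 T cells. It was at 178 CPM in other T cells, and ungated cells lay above CD4 T cells at 354 CPM (331 to 379). Nrp1 was highest in macrophages (115 CPM, 112 to 119), with 34.6 CPM in CD4 T cells, 37.3 in CD8 T cells and 19.3 in B cells. The B cell value was uneven, with 112, 134 and 114 CPM in the 48, 52 and 134 B cells of populations 1, 4 and 7, and 2.26 to 4.49 CPM in the other 6. A gate of 16 cells set up for type 2 innate lymphoid cells went against its label: it held 1834 CPM of Ikzf2, 929 of Il2ra, 126 of Foxp3 and 327 of the T cell gene Cd5, with 1 UMI of the type 2 cytokine Il13. It is not used as a cell type.

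Whether the other members mark the cells that hold Foxp3 was asked within the CD4 gate, in 266 Foxp3-positive and 2180 Foxp3-negative cells with a hashtag. Ratios are of CPM, Foxp3-positive over Foxp3-negative, stratified by hashtag population (Mantel-Haenszel), so that they compare cells of the same population. A gene is counted as higher at 2-fold or more, or lower at 0.5 or less, with at least 50 UMIs and a 95% interval that leaves out 1. Since Foxp3 defines the classes it was not compared. Of the other 9 members 6 were higher, 1 (Il2) was lower and 2 (Il2rg and Nrp1) were neither. Of 9792 genes measured 7.76% were higher and 5.54% lower. The median log2 ratio was 1.74 over the 8 members with a ratio above 0 and 0.09 over all genes. The intervals treat UMIs as independent although a cell gives many, so they are too narrow. For the members the spread over populations is given beside each. For the other genes named below it is not given, and some of them differed in direction between populations.

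**Figure D2:**
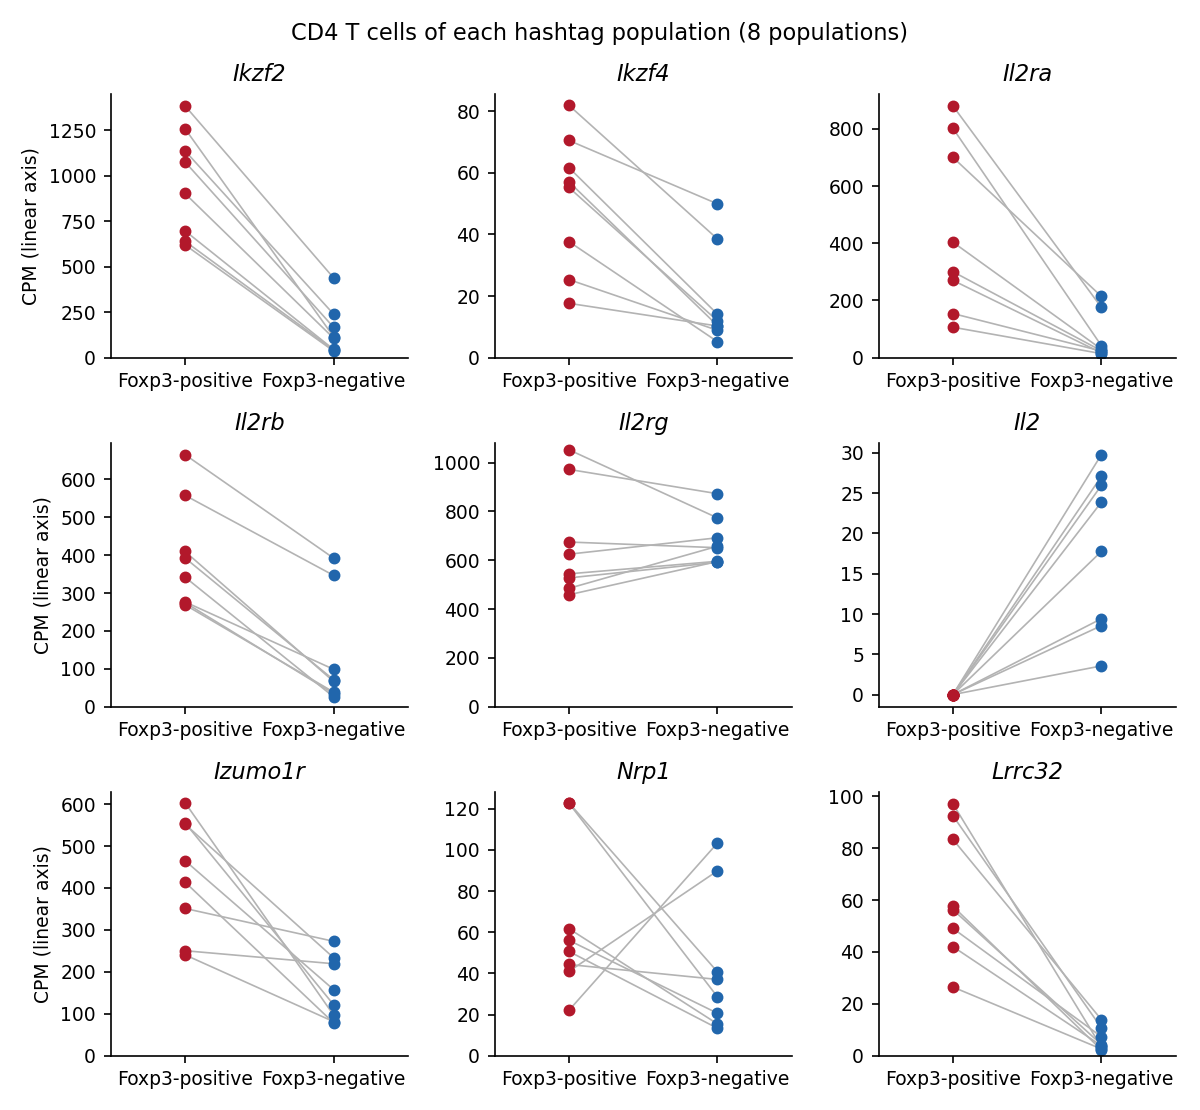
Level of each member (CPM) in Foxp3-positive CD4 T cells (left, red) and Foxp3-negative CD4 T cells (right, blue) of the 8 hashtag populations with at least 20 cells of both; a grey line joins a population. Every line falls to the right for Ikzf2, Ikzf4, Il2ra, Il2rb, Izumo1r and Lrrc32, every line climbs for Il2, and the lines cross for Nrp1 and Il2rg.

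Among the transcription factors, Ikzf2 ranged over the 9 populations from 620 to 1384 CPM (median 902) in Foxp3-positive cells, and from 36.9 to 439 CPM (median 116) in Foxp3-negative cells. The ranges do not overlap. In population 9, however, 1 cell held 59 of the 145 Ikzf2 UMIs of the Foxp3-positive cells (40.7%). The gap between the ranges was not shown without that cell. The stratified ratio was 7.04 (6.52 to 7.60), and it was higher in 8 of the 8 populations with 20 or more cells in each class. Helios is known as a factor of thymus-derived and activated Tregs. Ikzf4, whose product Eos works with Foxp3 as a corepressor, was detected far less: 17.6 to 81.9 CPM (median 57.1) in Foxp3-positive cells, and 5.19 to 49.9 CPM (median 12.0) in Foxp3-negative cells. These ranges overlap, although Ikzf4 was higher in each of the 8 populations, in 4 of them with an interval that left out 1. Its ratio was 3.22 (2.47 to 4.19), from 112 UMIs in Foxp3-positive cells and 126 in Foxp3-negative cells.

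Of the receptor chains Il2ra had the largest ratio and the widest spread. In Foxp3-positive cells it was at 701, 301, 107, 880, 404, 270, 1235, 802 and 154 CPM from population 1 to population 9, an 11.6-fold range. In Foxp3-negative cells it was at 214, 23.9, 14.1, 175, 29.5, 16.6, 37.8, 41.5 and 23.1 CPM. The highest Foxp3-negative values, in populations 1 and 4, thus exceed the lowest Foxp3-positive ones, but within each population Foxp3-positive cells were higher. The stratified ratio was 9.43 (8.31 to 10.7), and 3.28 to 19.3 within single populations with 20 or more cells in each class. In population 8, 1 cell held 119 of the 362 Il2ra UMIs of the Foxp3-positive cells (32.9%), and 1 cell held 48.2% of those of the Foxp3-negative cells. The highest Foxp3-positive value, in population 7, came from 13 cells, of which 1 held 58 of the 160 UMIs (36.25%). In population 5, 1 Foxp3-positive cell held 29 of 92 (31.5%).

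Il2rb was 269 to 665 CPM (median 386) in Foxp3-positive cells, and 26.1 to 392 CPM (median 71.0) in Foxp3-negative cells. The ratio was 3.48 (3.16 to 3.83), higher in 8 of 8 populations, in which it was 1.61 to 13.1, and 1.57 in population 7. Il2rg was 459 to 1120 CPM (median 625) in Foxp3-positive cells, and 543 to 873 CPM (median 652) in Foxp3-negative cells. Its ratio of 0.969 (0.913 to 1.03) lay above 1 in 3 populations and below 1 in 5. The common gamma chain was thus the receptor chain whose stratified interval held 1, while its ratio ran from 0.738 to 1.36 in the 8 populations with 20 or more cells in each class and was 2.06 (1.60 to 2.66) in population 7, which has 13 Foxp3-positive cells.

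**Figure D3:**
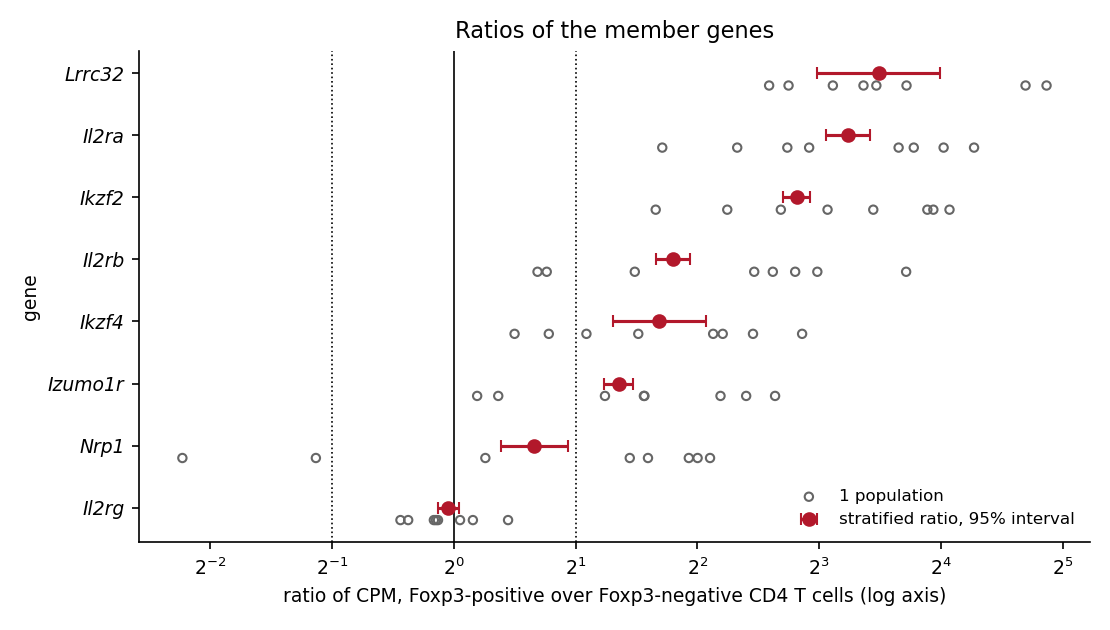
Ratio of CPM in Foxp3-positive over Foxp3-negative CD4 T cells for 8 members (log axis): red points are stratified ratios with 95% intervals of counting error, open circles are the populations with at least 20 cells of both classes. Lrrc32 (11.2), Il2ra (9.43) and Ikzf2 (7.04) lie to the right of the dotted 2-fold line in every population, Il2rg lies near 1, and Nrp1 has populations on both sides.

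Lrrc32 had the largest ratio of the members, 11.2 (7.91 to 15.9), from 133 UMIs in Foxp3-positive cells and 53 in Foxp3-negative cells. Its level was 26.5 to 97.1 CPM (median 56.3) in Foxp3-positive cells, and 2.22 to 13.9 CPM (median 4.28) in Foxp3-negative cells, without overlap. Izumo1r, known from Tregs and from anergic CD4 T cells, was 241 to 604 CPM (median 414) in Foxp3-positive cells, and 78.4 to 273 CPM (median 122) in Foxp3-negative cells. The ranges overlap slightly, and the ratio was 2.56 (2.35 to 2.78), higher in 8 of 8 populations and with an interval that left out 1 in 6 of them. With the stricter gate of at least 3 Cd3 and 2 Cd4 UMIs the log2 ratio of Izumo1r was 0.80, under the 2-fold limit.

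Nrp1, like Il2rg, lay on both sides of 1 in different populations, and over a wider range (0.213 to 4.30 in the 8 populations with 20 or more cells in each class). In Foxp3-positive cells it was at 22.03, 123, 56.1, 41.0, 123, 50.7, 23.2, 44.3 and 61.7 CPM from population 1 to population 9. In Foxp3-negative cells it was at 103, 28.6, 20.6, 89.9, 40.7, 13.3, 94.4, 37.1 and 15.4 CPM. Foxp3-positive cells were thus lower in populations 1, 4 and 7 and higher in the other 6, and the stratified ratio of 1.58 (1.31 to 1.91) averages over opposite directions. The counts in populations 1, 4 and 7 were small, with 5, 8 and 3 Nrp1 UMIs in Foxp3-positive cells against 29, 21 and 20 in Foxp3-negative cells. The macrophage genes C1qa, C1qb and C1qc together moved with this, at 185, 2488 and 2880 CPM in Foxp3-positive cells against 4959, 3333 and 6633 CPM in Foxp3-negative cells of populations 1, 4 and 7. In the other 6 populations the highest C1q level in either class was 298 CPM. With cells of at least 2 C1q, CD8 or B cell UMIs left out, Nrp1 was at 22.5, 0 and 0 CPM in Foxp3-positive cells of populations 1, 4 and 7. In Foxp3-negative cells of these populations it was at 123, 64.3 and 82.9 CPM. These values rest on 4, 0 and 0 UMIs against 8, 6 and 4. Cells with fewer such UMIs stayed in, and C1q levels were not computed again. The part of macrophage RNA in the Nrp1 values was not tested.

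Il2 was not detected in a Foxp3-positive cell. The 266 Foxp3-positive cells held 0 UMIs and the 2180 Foxp3-negative cells 219, a level at least 13.2-fold lower (3 UMIs over the class as the floor, set against the 39.6 UMIs that the class would hold at the Foxp3-negative level of each population). Since few cells carry most Il2 UMIs, this bound is too firm. By the same floor of 3 counts, 0 of 266 cells allows a share of up to 1.13% of cells with a UMI. Among Foxp3-negative cells the share was 1.95% (43 of 2200 cells). Counted in cells rather than UMIs, the bound is thus short of 2-fold. In Foxp3-negative cells Il2 was at 3.57, 23.9, 27.1, 8.56, 26.0, 9.42, 4.72, 17.8 and 29.8 CPM from population 1 to population 9. Single cells made up much of several values. In populations 2, 3, 5 and 6, 1 cell held 28 of 36, 46 of 50, 17 of 30 and 16 of 17 UMIs. Populations 1, 4 and 7 had 1, 2 and 1 UMIs. Over all 21347 cells, 552 held Foxp3, 77 held Il2 and 0 held both; the product of the 2 shares comes to 1.99 cells, and to 4.70 cells within the CD4 gate, so the absence rests on few cells.

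Few cells carried the Il2 signal. Of 335 UMIs in all, 219 (65.4%, 60.0 to 70.5%) lay in 43 CD4 T cells, 73 (21.8%) in 11 CD8 T cells and 27 (8.06%) in 14 other T cells. Of these, 1 CD8 T cell held 37 of the 73, and without population 8 the CD8 share was 11.5%. NK cells held 4 UMIs, all in 1 cell, B cells 3 and macrophages 2. The 10 cells with the most UMIs held 61.5% of the total, the highest with 46 UMIs, while 40 of the 77 cells had exactly 1. The share of Foxp3-negative CD4 T cells with an Il2 UMI was 2.00, 1.85, 0.952, 5.00, 2.24, 0.491, 3.13, 2.71 and 3.52% from population 1 to population 9. At most 15 such cells lay in any population. The Clopper-Pearson interval of population 9 (1.98 to 5.74%) does not overlap that of population 6 (0.0596 to 1.76%), while that of population 4, which has the highest share, overlaps both (0.611 to 16.9%).

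**Figure D4:**
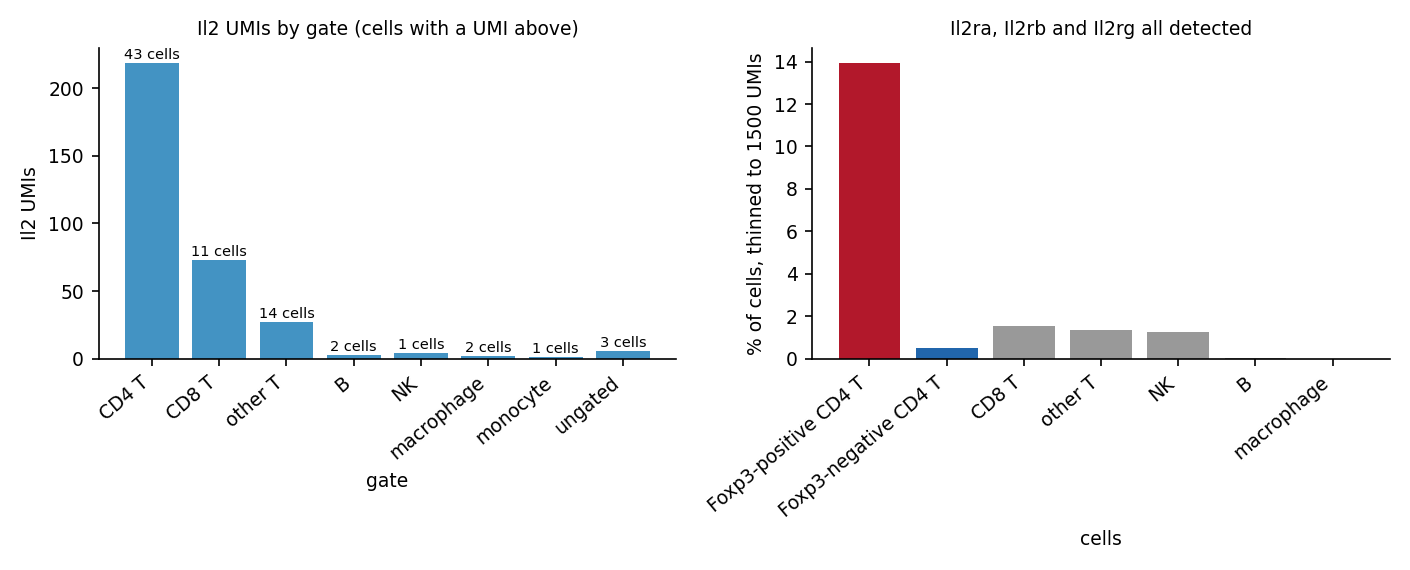
Left: Il2 UMIs (bars) in each marker gate with any, and above each bar the number of cells that held them; CD4 T cells held 219 UMIs in 43 cells. Right: percent of cells in which Il2ra, Il2rb and Il2rg were all detected, as the share expected when each cell is thinned to 1500 UMIs, in Foxp3-positive CD4 T cells (14.0%), Foxp3-negative CD4 T cells (0.490%) and other gates. The shares pool the populations.

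Detection in the same cell gave the same order for the receptor chains. Because Foxp3-positive cells were deeper, with a median of 5409 UMIs against 4383 in Foxp3-negative cells, shares are given for cells thinned to 1500 UMIs, which leaves out 4 Foxp3-positive and 29 Foxp3-negative cells. Il2ra was detected in 39.6% of Foxp3-positive and 2.83% of Foxp3-negative cells (65.9 and 6.14% before thinning), Il2rb in 42.4 and 6.91% (76.7 and 15.8%), and Il2rg in 61.6 and 60.0% (88.9 and 89.4%). The shares in this paragraph pool populations that differ in level. Within single populations the thinned Il2ra share was 15.3 to 65.1% in Foxp3-positive and 1.51 to 22.9% in Foxp3-negative cells. For Il2rb it was 33.7 to 58.2% and 3.56 to 38.9%, so the ranges of both chains overlap. All 3 chains together were found in 14.0% of Foxp3-positive cells and 0.490% of Foxp3-negative cells (53.0 and 2.91%). The corresponding share was 1.56% in CD8 T cells and 1.26% in NK cells, in which Il2rb and Il2rg together were found in 48.4%.

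Of the other members, Ikzf2 was detected in 60.4% of Foxp3-positive and 6.77% of Foxp3-negative cells, and Izumo1r in 41.9 and 15.98%. Lrrc32 was detected in 11.6 and 0.647%, Ikzf4 in 8.21 and 1.76%, and Nrp1 in 8.10 and 3.04%, all thinned to 1500 UMIs. Ikzf2, Il2ra and Izumo1r were found together in 10.7% of Foxp3-positive and 0.548% of Foxp3-negative cells. All of these shares pool the populations.

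Beyond the first Foxp3 UMI in a cell, further ones went with no common order of the other members. Cells with 1, 2 and at least 3 Foxp3 UMIs numbered 127, 55 and 88, and their median depth was 4279, 5303 and 7823 UMIs, so the count of Foxp3 also sorts cells by depth. Ikzf2 was at 94.1, 790, 1276 and 848 CPM in cells with 0, 1, 2 and at least 3 Foxp3 UMIs. Il2ra was at 32.4, 441, 500 and 548 CPM, and Lrrc32 at 5.08, 67.1, 85.9 and 46.3 CPM. The step between 0 and 1 UMI exceeded the intervals for all 3 genes. For Il2ra the intervals of 1 UMI (394 to 493 CPM) and at least 3 (506 to 593 CPM) do not overlap, and for Ikzf2 those of 1 and 2 UMIs do not. The classes pool populations that differ in level, 11.6-fold for Il2ra in Foxp3-positive cells, and this part was not tested. Il2 was at 21.0 CPM in cells without Foxp3 and at 0 in each other class.

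**Figure D5:**
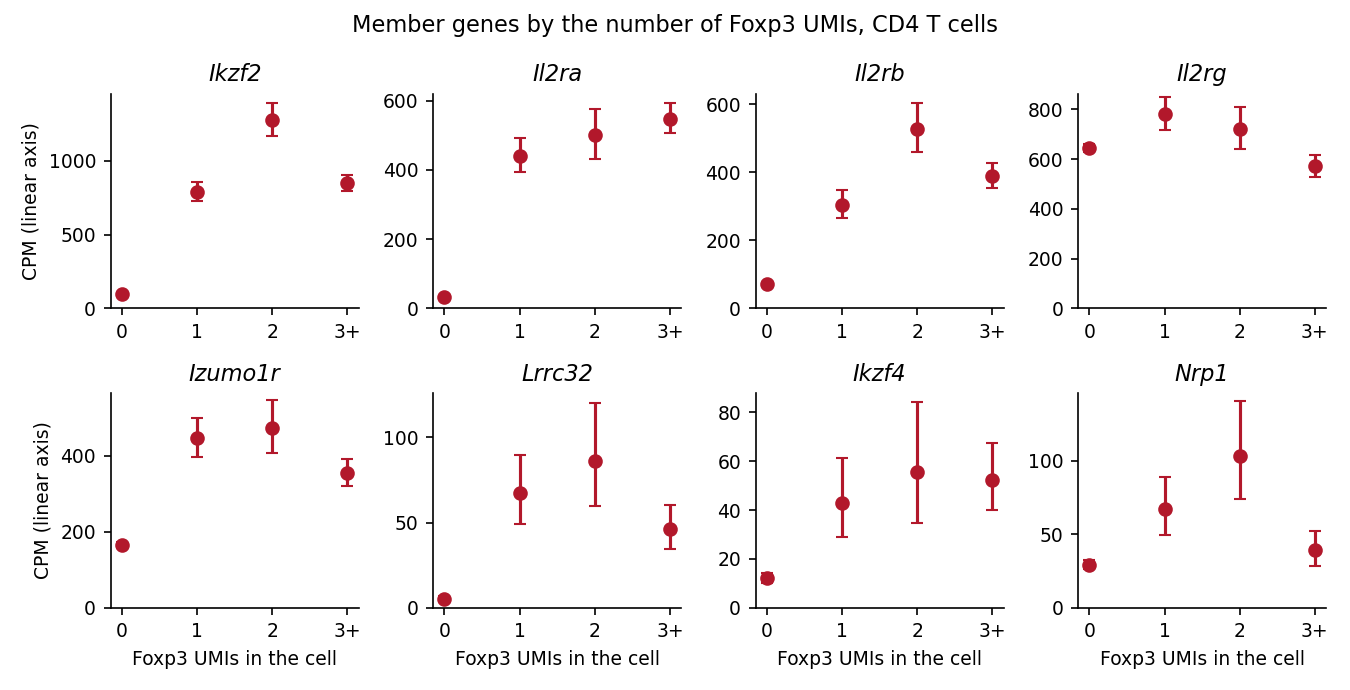
Level (CPM, linear axis from 0, 95% Poisson intervals) of 8 members in CD4 T cells with 0, 1, 2 or at least 3 Foxp3 UMIs. Each of the 8 genes is higher at 1 UMI than at 0, Il2rg by the least in proportion (780 against 644 CPM). At 2 UMIs only Ikzf2 and Il2rb are higher again with intervals apart from those at 1 UMI. The classes pool the populations, and the ratio of Il2rg stratified by population was 0.969.

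The same comparison was made outside the CD4 gate, in 129 Foxp3-positive and 2396 Foxp3-negative T cells that passed neither the Cd4 nor the Cd8 gate, a setting chosen after seeing the data. There 7 of 8 measured members were higher, against 6.96% of all genes, and 0 lower, against 5.48%. Il2ra had a ratio of 18.1 (15.4 to 21.3), Lrrc32 25.7 (16.9 to 39.0), Ikzf2 7.70, Izumo1r 6.71 and Nrp1 4.69 (3.58 to 6.13). Il2 had 0 UMIs in Foxp3-positive and 27 in Foxp3-negative cells, too few to compare. Populations with at least 20 cells of both classes numbered 2.

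Cell cycle genes were detected more often in Foxp3-positive cells when populations were pooled. At least 1 UMI of 8 genes of dividing cells (Mki67, Top2a, Cdk1, Plk1, Ccnb1, Nusap1, Birc5 and Tpx2) was found in 36.7% of Foxp3-positive cells and 13.9% of Foxp3-negative cells (22.2 and 5.88% thinned). Within single populations the unthinned share was 23.8 to 50% (median 38%) in Foxp3-positive cells. In Foxp3-negative cells it was 10.2 to 46.9% (median 13.9%), so the ranges overlap. With cells that held such a UMI left out, also a setting chosen after seeing the data, 170 Foxp3-positive and 1881 Foxp3-negative cells remained. Then 7 members were higher, against 5.55% of 9058 genes, and 1 was lower, against 3.06%. The higher ones included Il2ra at 7.49 (6.36 to 8.82), Lrrc32 at 17.9 (11.3 to 28.3) and Nrp1 at 2.39 (1.86 to 3.07). Il2 had 0 UMIs in Foxp3-positive cells against 173 in Foxp3-negative cells. Here 4 populations had at least 20 cells of both classes, and Nrp1 was higher in 3 of them and lower in 1. Il2rg stayed under the 2-fold limit in all 3 comparisons.

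Of 15 measured genes of the interleukin-2 receptor signal, 2 were higher in Foxp3-positive cells and 0 lower, near the 7.76% and 5.54% of all genes. These shares of all genes apply to each list that follows, and with lists this short a count of 1 or 2 is near them. Socs2 (ratio 7.20, 5.01 to 10.3; 47.0 CPM in Foxp3-positive and 4.07 in Foxp3-negative cells) and Cish (3.90, 3.36 to 4.51; 171 and 30.8 CPM), both feedback inhibitors that STAT5 induces, were the 2. The kinases and factors of the signal lay nearer 1, with Jak3 at 1.82, Stat5a at 0.958, Stat5b at 0.739 and Jak1 at 0.660. The median log2 ratio of the list was 0.15.

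Of the other cytokines and receptors of the common gamma chain family, 1 of 7 measured was higher and 4 were lower. Il15ra, the chain that presents interleukin-15, had a ratio of 2.08 (1.46 to 2.96), higher in 6 of 8 populations and lower in 2. Il7r, the receptor chain of resting T cells, had a ratio of 0.421 (0.372 to 0.477). Its level was 141 CPM in Foxp3-positive and 328 CPM in Foxp3-negative cells. Both Il7r and Il4ra were lower in 7 of 8 populations and higher in 1. Il4ra had a ratio of 0.486 and Il21 of 0.210, and Il4 had 0 UMIs in Foxp3-positive against 58 in Foxp3-negative cells, at least 3.68-fold lower by the same floor.

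Genes of Treg effector function and activation were higher in 19 of 20 measured and lower in 0. The list was chosen as genes known from such cells and is not independent of the Foxp3 classes. Itgae, the integrin chain CD103, had a ratio of 13.3 (10.6 to 16.6), with 140 CPM in Foxp3-positive and 8.71 CPM in Foxp3-negative cells, and the chemokine receptor Ccr4 one of 5.68 (4.29 to 7.52). The lowest of the list were Gzmb at 2.09 (1.91 to 2.28) and Fgl2 at 1.26 (1.05 to 1.496). Of these Fgl2 lay under the limit. Ccr4 and Gzmb were each higher in 6 of 8 populations and lower in 2. Of the 19 transcription factors known to work with Foxp3 or beside it, 4 were higher, against 7.76% of all genes, and 2 lower, against 5.54%. Prdm1 (3.96, 3.17 to 4.94) and Maf (2.83, 2.46 to 3.27) had the highest ratios, and Satb1 (0.395, 0.357 to 0.437) and Bach2 (0.362, 0.321 to 0.408) the lowest.

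Among the partners of Lrrc32 and Nrp1, 2 of 6 measured were higher and 1 lower. Itgb8 (4.74, 3.63 to 6.20) and Itgav (4.07, 3.66 to 4.52), whose products form the integrin that frees TGF-beta from GARP, were higher. Tgfb1 itself had a ratio of 1.39 (1.25 to 1.54), higher in 6 of 8 populations and lower in 2. Sema4a, a ligand reported for neuropilin-1, was at 0.377 (0.263 to 0.540). Of 7 genes of resting T cells 0 were higher and 4 lower, with Tcf7 at 0.300 (0.264 to 0.341) and Lef1 at 0.316 (0.284 to 0.353). Of 10 helper cytokine and activation genes 0 were higher and 2 lower, Cd40lg at 0.230 (0.184 to 0.289) and Ifng at 0.395 (0.273 to 0.570). Ifng was lower in 7 of 8 populations and higher in 1.

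Over all other genes with at least 100 UMIs and the same direction in each of the 8 populations, the highest ratio belonged to Ppp1r3fos (16.2, 10.6 to 24.8), called Flicr in GENCODE vM21. It overlaps Foxp3 on the same strand by 7384 bases, so reads of the genes may not be told apart. Most of the next 9 were genes of division, among them Ncapg (13.1), Nusap1 (11.5), Plk1 (11.3), Cdk1 (10.6) and Ccnb1 (10.5). The lowest were Dapl1 (0.0584), Tdrp (0.0725), Ggt5 (0.108), Pde3b (0.116) and Hs3st3b1 (0.138). Il2rg likewise shares its strand with an overlapping gene, Gm20489, which had 99 UMIs in all cells.

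The genes whose level over 11 gates was most like that of Foxp3, by Pearson's r of log2(CPM + 5) over 12438 genes, were Ppp1r3fos (0.992), Ncmap (0.991), Dnajc6 (0.986), Siah3 (0.985) and Ccr4 (0.984). Lrrc32 ranked 13 (0.955) and Izumo1r 19 (0.933) by this measure, Il2 68 (0.870), Ikzf2 148 (0.814) and Il2ra 537 (0.694). Nrp1 ranked 7179 (0.053). The gates share a pool and its depth, and most points lie near the floor, so the values are a description.

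Last, Foxp3-negative CD4 T cells with an Il2 UMI (43 cells, median 5660 UMIs) were set against those without (2137 cells, median 4357 UMIs). Of 8 members measured, 1 was higher, against 5.94% of 9323 genes. By its ratio of 0, 1 (Ikzf4) was counted as lower, against 3.02% of genes. Il2ra was at 84.6 CPM in Il2-positive and 30.7 CPM in Il2-negative cells, a ratio of 2.39 (1.66 to 3.45), from 30 UMIs in Il2-positive cells. Ikzf4 had 0 UMIs in Il2-positive and 126 in Il2-negative cells, which the floor of 3 UMIs, set against each population's level, puts at least 1.43-fold lower, short of 2-fold. Il2rb (1.97, 1.498 to 2.58), Izumo1r (1.80), Nrp1 (1.71), Il2rg (1.04) and Ikzf2 (0.625, 0.416 to 0.938) were within the limits, and Lrrc32 had 0 UMIs against 53, which its depth cannot place.

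No population held 20 Il2-positive cells, and without population 6 no member passed the 2-fold limit as higher. Of the helper and activation genes 4 of 10 were higher in Il2-positive cells, against the 5.94% of all genes. These were Bhlhe40 (3.79, 3.27 to 4.39), Nfkbid (2.30), Ifng (2.22) and Tnf (2.05). Of 19 measured genes of Treg effector function and activation 7 were higher and 2 lower, against 5.94% and 3.02% of all genes. Ccr4 (10.4, 6.65 to 16.2) and Tnfrsf4 (4.21, 3.65 to 4.87) were the highest, and Tigit (0.448) and Gzmb (0.0651) the lower ones. All 7 were also among those higher in Foxp3-positive cells. Of 14 measured genes of the interleukin-2 receptor signal 2 were higher and 1 lower, against 5.94% and 3.02% of all genes: Cish (5.62, 4.21 to 7.49) and Myc (3.06, 2.29 to 4.09) were the higher ones and Bcl2 (0.363, 0.224 to 0.588) the lower one. Cish, like Ccr4 and others, was thus higher in Foxp3-positive cells, which held no Il2, and in Il2-positive cells. The latter were drawn from cells without a Foxp3 UMI, so their lack of Foxp3 was set by the selection.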

How the data were processed

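The deposited table holds raw UMI counts per gene and cell for 1 pool (4 gene expression libraries and 1 hashtag library), which, per the submitters' processing notes, the authors produced with Cell Ranger 8.0.1 on mm10. The labels name the hashtags TotalSeq-C and the table names them TotalSeq-B. Cells with under 500 UMIs, under 200 genes or over 20% mitochondrial UMIs were removed as the study states (21531 of 21624 barcodes passed), and 184 doublets called by Scrublet (scanpy 1.11.5; 0.855%) were left out. A cell belonged to the hashtag with at least 3 times the count of the next. Levels are counts per 1000000 gene UMIs (CPM). T cell receptor segments are not rows of the table used here, so a gamma-delta gate could not be applied and such cells lie among the other T cells. Ratios were stratified by population (Mantel-Haenszel, 95% Greenland-Robins interval; numpy 2.4.6, scipy 1.17.1) and checked on simulated counts. Populations form no groups and no p-value was computed. Thinned shares are expected shares at 1500 UMIs. All intervals and floors cover counting error only. Named genes were all members, up to 4 per list (the 2 highest and 2 lowest ratios with at least 50 UMIs), and of all other genes with at least 100 UMIs the 10 highest and 5 lowest with 1 direction in every population; genes named beyond this were chosen after their values were seen. The members and lists were chosen with earlier results of these data known. Alternatives tried were a stricter and a lineage-clean CD4 gate, hashtag ratios, doublets and filters, a higher Foxp3 minimum, pooling, equal weight per cell, lower limits, thinning, and each population left out.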

Additional observations from a re-analysis of the deposited data

How the results depend on the processing

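Cell classes were compared within populations, but populations could not be paired by mouse or site because the labels tie no hashtag population to either. The share of CD4 T cells with Foxp3 was 12.5% with the stricter gate, 4.93% thinned to 1500 UMIs and 3.62% thinned to 1000, and 9.59 to 12.1% with 1 population left out. The count of members higher in Foxp3-positive cells was 5 to 7 over all alternatives and 6 with any population left out; Ikzf2, Ikzf4, Il2ra, Il2rb and Lrrc32 passed the limit under every alternative run, Il2 stayed at 0 UMIs in Foxp3-positive cells, and Nrp1 passed it in 4 of 20 alternatives. Over all genes, 1688 were higher and 1019 lower at a 1.5-fold limit, against 760 and 542, and 503 higher and 277 lower without cells that hold a cell cycle UMI; with 1 population left out the counts were 690 to 803 and 478 to 577. The share of Il2 UMIs in CD4 T cells was 49.0% with the stricter gate, 49.6% with the lineage-clean gate and 61.4 to 72.5% with 1 population left out. The count of members higher in Il2-positive cells was 3 with the lineage-clean gate, 4 at a 1.5-fold limit and 0 to 2 with 1 population left out (0 without population 6). The cause of these shifts was not tested, except that thinning and the other limits change the values by construction. Depth limits every member within single populations, where Il2, Lrrc32 and Ikzf4, with 335, 372 and 655 UMIs in all cells, had the fewest.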

Other observations

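Several members had values in populations 1, 4 and 7 apart from the other 6, which the labels put in no group. The macrophage gate held 588, 951 and 1426 cells in populations 1, 4 and 7, and 14, 5, 11, 5, 18 and 7 cells in populations 2, 3, 5, 6, 8 and 9. In CD8 T cells Il2rb was at 765, 781 and 638 CPM in populations 1, 4 and 7, and at 124, 94.96, 137, 102, 126 and 110 CPM in the others in the same order. Il2ra in CD8 T cells was at 54.6, 126 and 76.8 CPM, and at 4.89, 5.06, 20.4, 6.92, 15.8 and 7.47 CPM in the others. Nrp1 in CD8 T cells was at 79.0, 63.9 and 104 CPM, and at 10.7, 6.96, 7.57, 3.28, 12.3 and 8.76 CPM in the others. Il2rg in Foxp3-positive CD4 T cells was at 1053, 973 and 1120 CPM, and at 528, 485, 544, 625, 459 and 675 CPM in the others. Foxp3 in the other T cells showed no such split, at 20.1, 26.6 and 25.7 CPM in populations 1, 4 and 7, and at 25.0, 16.4, 26.3, 17.4, 27.6 and 15.1 CPM in the others. No test was run on these values.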
